A study of Mus musculus with 6 samples.

Results

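The elastic fibre and microfibril genes described here are 10 genes of 47480 in the deposited table: Eln, Fbn1, Fbn2, Efemp1, Efemp2, Fbln5, Ltbp4, Lox, Loxl1 and Mfap4. They were taken by gene symbol, and the group was selected on the lower values of Eln and Fbn2 in knockout chondrocytes, so the difference of these 2 genes between genotypes is a description and carries no test. Cartilage cells (primary chondrocytes) of neonatal mice gave the RNA, which was sequenced in 3 libraries of wild-type animals (WT) and 3 libraries of animals with a global knockout (A2ARKO) of Adora2a, the gene of an adenosine receptor. Both genotypes are labelled as C57BL/6, and each library is 1 pool of the trypsinized cells of an entire litter, so the spread between libraries is a spread between litters. The stated purpose of the study concerns what drives osteoarthritis, a joint disease with loss of cartilage. Levels are FPKM, fragments counted for a gene scaled for its length and for the size of the library, and errors are SD over 3 libraries.

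Elastic fibres give skin, lung, arteries and elastic cartilage their recoil. Tropoelastin, the product of Eln, is laid down on a scaffold of microfibrils whose backbone is made of fibrillins, and short fibulins bring tropoelastin, microfibrils and cross-linking enzymes together. Enzymes of the lysyl oxidase family then cross-link the elastin, and the same enzymes cross-link collagens. Fibrillin microfibrils also occur without elastin, in cartilage among other tissues, and latent TGF-beta binding proteins attach to them.

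Marker genes of cartilage and of other cell types differed between libraries. Adora2a averaged 6.71 ± 2.995 FPKM in WT and 0.537 ± 0.125 FPKM in A2ARKO (SD, n = 3). The column sums were between 231094 and 300779 FPKM, and steps between the lowest values corresponded to depths of 41.6 to 58.1 M reads. Summed over 11 cartilage markers, the level was 25421, 1347 and 489.7 FPKM in WT replicates 1, 2 and 3 and between 2261 and 6315 FPKM in A2ARKO. The proteoglycan gene Acan, a defining gene of cartilage, read 878, 11.6 and 3.55 FPKM in the WT libraries. The WT libraries thus differed more from each other in cartilage markers than the A2ARKO libraries did. WT replicate 2 stood apart by 6 skeletal muscle markers, at 1071 FPKM against 5.89 to 18.6 FPKM in the other libraries. Marker sums of 3 other cell types did not overlap between the genotypes. The 8 fibroblast markers summed to between 5362 and 6406 FPKM in WT and between 1967 and 3647 FPKM in A2ARKO, and the 8 macrophage and leukocyte markers to between 123 and 1791 and between 16.2 and 42.4 FPKM. The tendon marker sums came close to overlap, at 299 to 1196 FPKM in WT and 243 to 296 FPKM in A2ARKO. These sums rest on few genes: Col1a1 and Col3a1 made up 89.4 to 96.8% of the fibroblast sum, Lyz2 made up 71.7 to 84.5% of the macrophage sum and Fmod made up 52.4 to 97.6% of the tendon sum. Without these genes the fibroblast sum (204 to 569 FPKM in WT, 132 to 322 FPKM in A2ARKO) and the tendon sum (28.9 to 143 and 19.4 to 41.2 FPKM) overlapped, and the macrophage sum (19.0 to 358 and 4.58 to 11.4 FPKM) did not. Of the 7 fibroblast genes tested 5 had log2 fold changes below 0 (median -0.79), as 5755 of all 11595 genes tested had. The others, Pdgfra and Thy1, were at 0.02 and 0.03. By limma 4 of the 7 had an unadjusted p below 0.05, as 24.7% of all genes tested had. Of the fibroblast genes 7 were tested and Dpt, the dermatopontin gene, was called lower, as 1.77% of all 11595 genes tested were. Of the 7 macrophage genes tested 0 were called and 5 had an unadjusted p below 0.05 by limma, as 24.7% of all genes tested had. Of the 4 tendon genes tested 0 were called, 2 had an unadjusted p below 0.05 by limma and all had log2 fold changes below 0 (median -0.81). Among these 4, the ranges of Scx and Mkx did not overlap between the genotypes, as those of 32.9% of all genes tested did not. Smooth muscle and pericyte markers overlapped (514 to 1175 and 495 to 1700 FPKM), as did osteoblast markers (9.71 to 504 and 39.6 to 70.3 FPKM). Of the endothelial markers 5 of 6, and of the epithelial markers 4 of 4, were below 1 FPKM in every library. No marker of any of these lists was at 0 in all 6 libraries. The part of these cell types in the results was not tested.

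**Figure D1:**
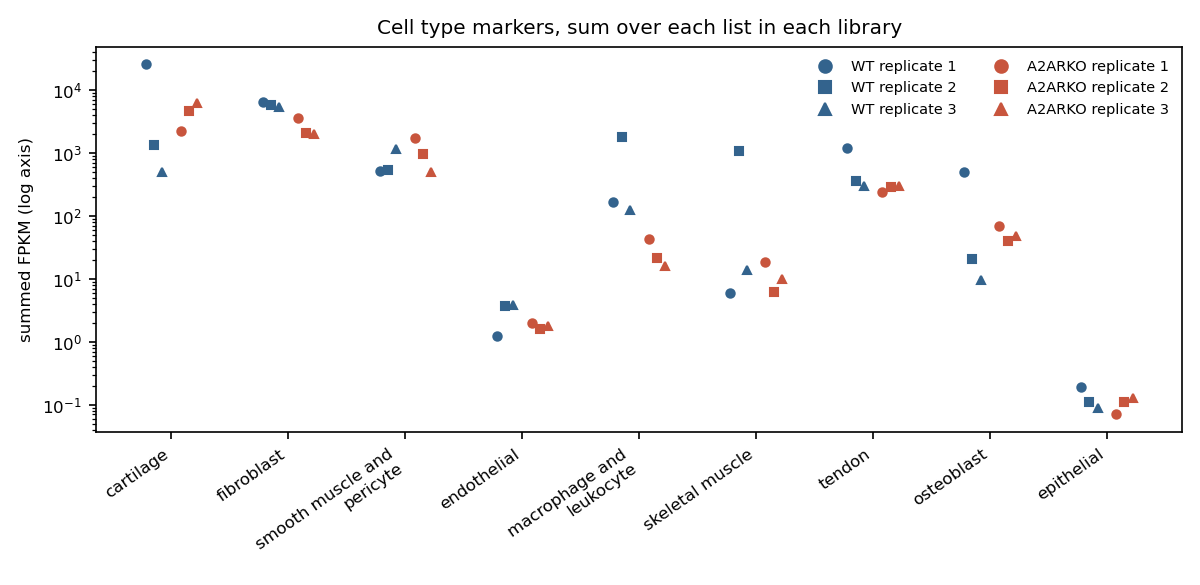
Summed FPKM of each cell type marker list (horizontal axis) in each library, on a log axis; colours are genotypes and symbols are replicates. WT replicate 1 lies highest for cartilage markers, WT replicate 2 highest for skeletal muscle and macrophage markers, and fibroblast, macrophage and tendon sums of the 2 genotypes do not overlap.

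The assembly genes of the elastic fibre did not move one way. A gene was called where limma's adjusted p was below 0.05. Eln and Fbn2, for whose lower values the group was chosen, are left out of the counts that follow. Of the 8 other members, Ltbp4 fell, Efemp2 rose and 6 did not pass. Over all 11595 genes tested, 5.08% were called, 1.77% lower and 3.31% higher. All 10 members reached 1 FPKM in every library, so none entered through a single genotype. The FPKM ranges of the genotypes did not overlap for 5 of these 8 members, against 32.9% of all genes tested. Log2 fold changes are differences of mean log2(FPKM + 1), with WT subtracted from A2ARKO, and their median was 0.12 over these 8 members and 0.0020 over all genes tested. With Eln and Fbn2 it was -0.52, a value that the choice of these genes moved below 0. In bulk RNA, fewer cells of a type and less RNA per cell cannot be told apart.

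**Figure D2:**
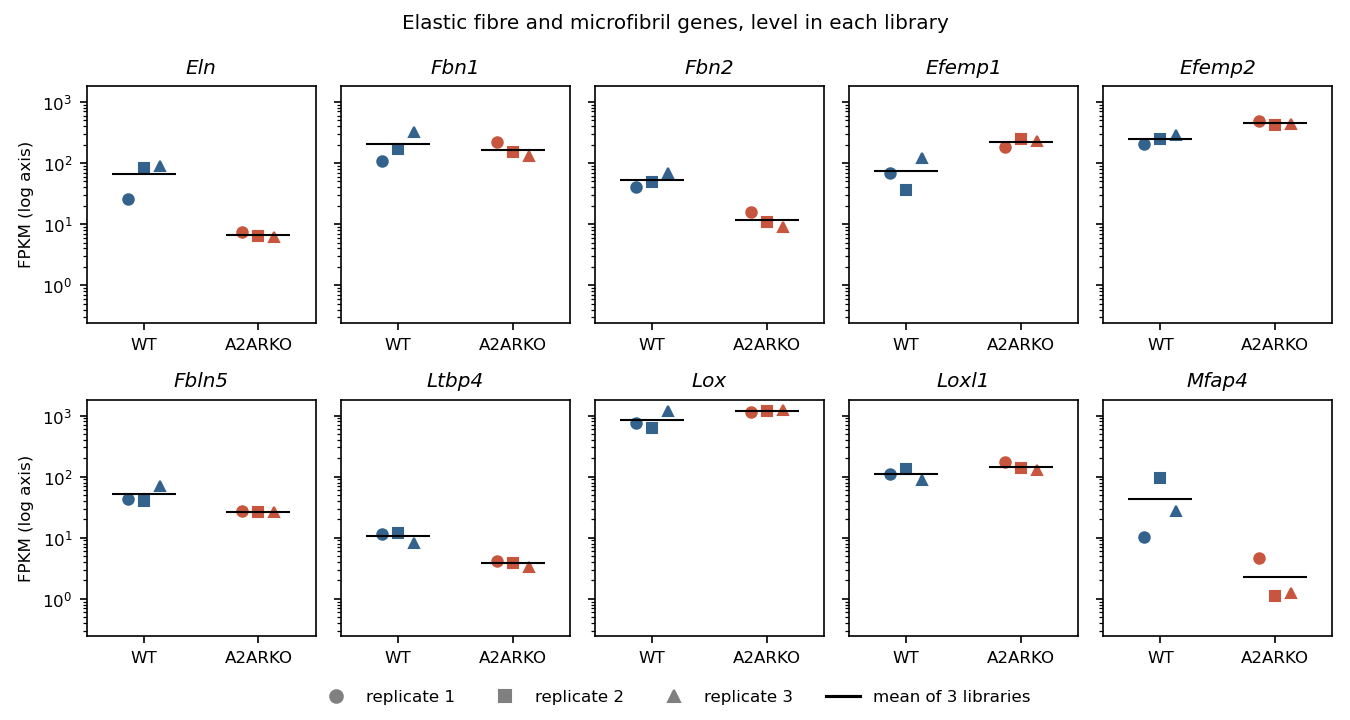
FPKM of each member (log axis) in the 3 WT and 3 A2ARKO libraries; symbols are replicates and bars are means. The groups are apart for Eln, Fbn2, Efemp1, Efemp2, Fbln5, Ltbp4 and Mfap4 and overlap for Fbn1, Lox and Loxl1.

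Eln encodes tropoelastin, the rubber-like protein at the core of the fibre (ENSMUSG00000029675.12, mm10 chr5:134702593-134747323, minus strand). Its level was 26.1, 83.1 and 90.1 FPKM in WT replicates 1, 2 and 3 and 7.45, 6.31 and 6.25 FPKM in A2ARKO replicates 1, 2 and 3. The WT libraries were spread 3.45-fold and the A2ARKO libraries 1.19-fold, and the lowest WT library lay above every A2ARKO library. The choice of Eln for its fall favours such a separation. The mean was 66.4 ± 35.1 FPKM in WT and 6.67 ± 0.676 FPKM in A2ARKO (SD, n = 3), 9.96-fold lower. The log2 fold change was -2.95 ± 0.47 (standard error). Leaving out each library in turn gave log2 fold changes from -3.52, without WT replicate 1, to -2.64, without WT replicate 3. WT replicate 1, lowest in Eln among WT, is the library with the highest cartilage marker sum, and the A2ARKO libraries lay between the WT libraries in that sum. The sums of macrophage markers, and those of fibroblast and tendon markers with their leading genes, were lower in A2ARKO beside Eln, as they were beside Fbn2, Mfap4, Ltbp4 and Fbln5, and their part in these differences was not tested.

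Fibrillins form the backbone of the microfibril. Fbn2 encodes fibrillin-2, the form made mainly in fetal and early postnatal tissue (ENSMUSG00000024598.9, mm10 chr18:58008623-58210487, minus strand), and Fbn1 encodes fibrillin-1, the main form of adult tissue (ENSMUSG00000027204.13, mm10 chr2:125300594-125507993, minus strand). Fbn2 read 40.8, 49.5 and 70.01 FPKM in WT against 15.96, 10.7 and 9.06 in A2ARKO. The means were 53.4 ± 15.01 and 11.9 ± 3.61 FPKM (SD, n = 3), 4.49-fold lower in A2ARKO. The log2 fold change was -2.08 ± 0.27 (standard error). With each library left out, the log2 fold change of Fbn2 stayed between -2.29 and -1.87. Every WT library was above every A2ARKO library. The choice of Fbn2 for its fall favours both this order and a range that stays below 0.

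Fbn1 did not show that separation. Its level was 109, 169 and 327 FPKM in WT against 219.6, 149 and 129.8 in A2ARKO, so that all 3 A2ARKO libraries lay inside the WT range. The log2 fold change of Fbn1 was -0.17 ± 0.43 (standard error; limma adjusted p = 0.848), and without WT replicate 3, its highest library, it was 0.25. Set against each other within a library, a ratio chosen after the values were seen and given with no test, Fbn2 made up 27.3, 22.6 and 17.6% of the summed FPKM of Fbn1 and Fbn2 in WT, and 6.78, 6.66 and 6.52% in A2ARKO. A factor common to all genes of a library does not change such a share. The share in A2ARKO varied by less than the spread in WT (SD of 0.126 against 4.81 percentage points). The strand setting of the counting is not given. Fbn1 shares 2442 exon bases with the antisense gene Gm9913, which is listed at 0.19 to 1.1 FPKM, and Fbn2 shares 129 with Gm26507, at 0.12 to 0.85 FPKM.

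Mfap4 encodes a microfibril-associated glycoprotein with a fibrinogen-like domain that binds elastin and fibrillin (ENSMUSG00000042436.12, mm10 chr11:61485431-61488900, plus strand). It varied more than any other member within each genotype: 10.1, 94.1 and 26.9 FPKM in WT against 4.58, 1.11 and 1.23 in A2ARKO. The means were 43.7 ± 44.5 and 2.31 ± 1.97 FPKM (SD, n = 3). The log2 fold change was -3.38 ± 0.82 (standard error, limma adjusted p = 0.0712). The groups did not overlap, yet the gene did not pass, and it passed without WT replicate 1 (adjusted p = 0.0322). Its highest library, WT replicate 2, is the one with the highest skeletal muscle and macrophage marker sums. Without WT replicate 2 the log2 fold change was -2.57 (adjusted p = 0.0929). Mfap4 had the fewest reads of the members, about 124 and 125 in A2ARKO replicates 2 and 3, while each of the other members had 1149 or more in every library. Mfap4 shares 89 exon bases with Mapk7 on the opposite strand, which read 8.15 to 12.7 FPKM.

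Ltbp4 encodes a latent TGF-beta binding protein that associates with fibulin-5 and promotes its deposition on microfibrils (ENSMUSG00000040488.17, mm10 chr7:27305136-27337692, minus strand). It had the lowest mean of the members in WT, at 11.6, 12.05 and 8.33 FPKM, and read 4.18, 3.85 and 3.37 FPKM in A2ARKO. Each A2ARKO library was at about the same level, below the lowest WT library. Ltbp4 fell 2.80-fold, from a mean of 10.7 ± 2.03 FPKM to one of 3.80 ± 0.407 FPKM (SD, n = 3). It had a log2 fold change of -1.27 ± 0.15 (standard error, limma adjusted p = 0.0141). It was called without WT replicate 1, 2 or 3. Without A2ARKO replicates 1, 2 and 3 the adjusted p was 0.0563, 0.0804 and 0.0749, at log2 fold changes of -1.32, -1.28 and -1.20.

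Short fibulins link elastin to the microfibril, and the values of the 3 genes of this kind did not differ in the same direction. Fbln5 encodes fibulin-5, which binds tropoelastin and cell surface integrins (ENSMUSG00000021186.9, mm10 chr12:101746565-101819055, minus strand). Its level was 43.5, 39.9 and 70.6 FPKM in WT against 27.7, 26.7 and 25.9 in A2ARKO. The A2ARKO libraries lay within 1.07-fold of each other and below all WT libraries. The means were 51.35 ± 16.8 and 26.8 ± 0.908 FPKM (SD, n = 3), and the log2 fold change of -0.87 ± 0.22 (standard error) did not pass (limma adjusted p = 0.0768). Without WT replicate 3, the highest library, it passed at -0.62 (adjusted p = 0.0261).

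Efemp2 encodes fibulin-4, which is needed for elastic fibre assembly and brings lysyl oxidase to elastin (ENSMUSG00000024909.15, mm10 chr19:5473954-5482517, plus strand). It read 202, 248 and 283 FPKM in WT against 493, 426 and 441 in A2ARKO, with every A2ARKO library above every WT library. Efemp2 rose from 244 ± 40.9 to 453 ± 35.1 FPKM (SD, n = 3), 1.86-fold. It had a log2 fold change of 0.90 ± 0.18 (standard error, limma adjusted p = 0.0494). That call is at the edge of the threshold. It did not pass once libraries were rescaled to equal sums (log2 fold change 0.78, adjusted p = 0.159) or after quantile normalization (0.64, 0.178), nor without the filter on low values (0.90, 0.159), nor with any library left out other than WT replicate 3 (adjusted p from 0.0457 to 0.187, log2 fold change from 0.77 to 1.01). Efemp2 shares 173 exon bases with Mus81 on the opposite strand, which is listed at 2.76 to 4.33 FPKM.

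Efemp1 encodes fibulin-3, a related protein that is less tied to elastin (ENSMUSG00000020467.15, mm10 chr11:28853204-28926743, plus strand). Its level was 68.4, 35.85 and 122 FPKM in WT against 181, 247 and 227 in A2ARKO. The groups did not overlap, with means of 75.3 ± 43.3 and 218 ± 33.4 FPKM (SD, n = 3). The log2 fold change was 1.68 ± 0.43 (standard error) and did not pass (limma adjusted p = 0.0808), while without WT replicate 3 it was 2.11 and passed (adjusted p = 0.0297). Of the summed FPKM of the 3 short fibulin genes, Fbln5 made up 13.9, 12.3 and 14.9% in WT and 3.95, 3.82 and 3.74% in A2ARKO. These shares follow from the levels above and carry no test. Fbln5 was thus lower, and Efemp1 and Efemp2 were higher, in every A2ARKO library than in any WT library.

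**Figure D3:**
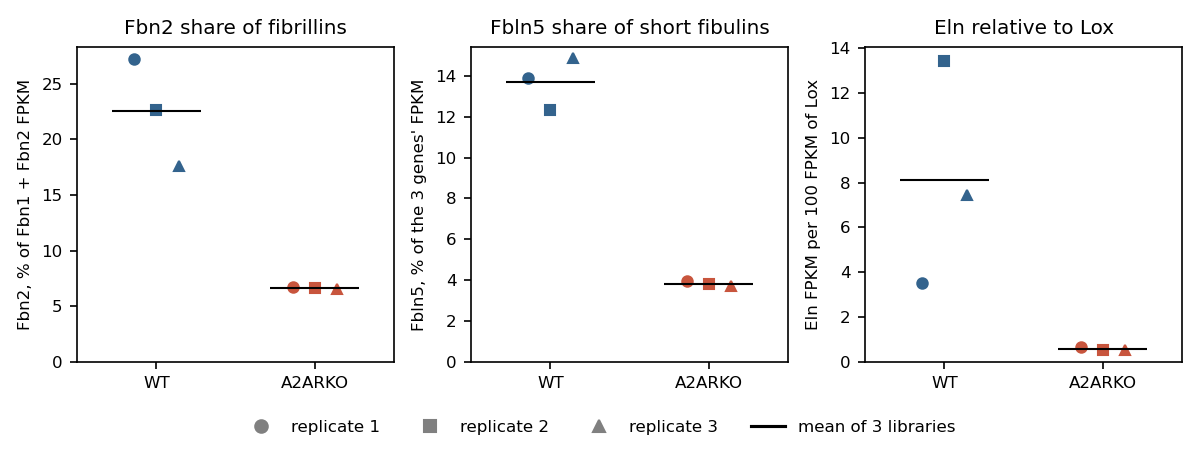
Ratios within each library: Fbn2 as a percentage of the fibrillin genes, Fbln5 as a percentage of Fbln5, Efemp1 and Efemp2, and Eln FPKM per 100 FPKM of Lox; symbols are replicates and bars are means. In each panel the 3 A2ARKO libraries lie close together and below the 3 WT libraries. Eln and Fbn2 were chosen for their lower values in A2ARKO, which favours this order in their panels. In the Fbln5 panel the order follows from the levels of the genes. Fbln5 was lower, and Efemp1 and Efemp2 were higher, in every A2ARKO library than in any WT library. No panel carries a test.

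Promoter sequence is shown for 3 members of the fibulin and Ltbp4 group, because 2 of them were called in opposite directions and the third is the fibulin with lower values in A2ARKO. The sequences are from RefSeq (GRCm38.p6), 5′ to 3′ on the gene's strand, and lie before the most upstream start listed, without bases that GENCODE annotates as exon. Capitals mark GC boxes, the letters GGGCGG on either strand, a common element of promoters without a TATA box. Windows of Eln, Fbn1, Fbn2, Lox, Loxl1 and Mfap4 were not used here. The windows are chr7:27337693-27337862 (minus strand) for Ltbp4, chr19:5473696-5473945 (plus strand) for Efemp2 and chr12:101819120-101819369 (minus strand) for Fbln5.
Ltbp4: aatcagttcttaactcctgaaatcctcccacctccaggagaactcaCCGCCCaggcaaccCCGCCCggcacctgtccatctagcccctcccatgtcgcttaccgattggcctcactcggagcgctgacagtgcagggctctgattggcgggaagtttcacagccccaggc
Efemp2: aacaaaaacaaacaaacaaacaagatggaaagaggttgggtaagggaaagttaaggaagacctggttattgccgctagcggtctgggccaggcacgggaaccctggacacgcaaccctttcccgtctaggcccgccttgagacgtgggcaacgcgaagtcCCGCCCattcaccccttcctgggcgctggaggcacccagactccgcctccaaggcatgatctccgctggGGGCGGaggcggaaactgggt
Fbln5: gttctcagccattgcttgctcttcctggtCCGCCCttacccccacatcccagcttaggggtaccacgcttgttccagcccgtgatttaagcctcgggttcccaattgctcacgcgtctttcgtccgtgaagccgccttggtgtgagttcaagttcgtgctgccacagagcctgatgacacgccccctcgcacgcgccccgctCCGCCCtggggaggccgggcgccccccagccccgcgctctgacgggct
Each of the 3 windows holds 2 GC boxes, and 32.7% of 32851 windows of 250 bases upstream of a RefSeq start hold at least 1. The Ltbp4 window is shorter, at 170 bases. RefSeq lists further starts within both called genes, and their windows, not printed, hold 5 and 7 GC boxes for Ltbp4 and 4 for Efemp2. For Ltbp4 the window with 5 lies inside the window with 7, so those boxes are shared. Overlapping matches are counted separately. GC content was 60.6% in the Ltbp4 window, 59.2% in that of Efemp2 and 65.2% in that of Fbln5, and the median over all windows was 52.4%. None of the 3 holds TATAAA (12.4% of all windows), TGANTCA, the AP-1 site (6.75%), or TGACGTCA, the full cAMP response element (1.55%), on either strand. CCAAT was found 2 times in the Ltbp4 window, 1 time in that of Fbln5 and 0 times in that of Efemp2 (33.9% of all windows). The window of Efemp1, not printed, has a GC content of 53.4% and holds 1 GC box, 1 AP-1 site and none of the other motifs. GC boxes were thus found in the windows of members with higher and with lower values in A2ARKO.

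Lysyl oxidases oxidize lysines of elastin and collagen to start cross-linking. Lox (ENSMUSG00000024529.14, mm10 chr18:52516067-52529867, minus strand) was the most abundant member in both genotypes. It read 743, 620.1 and 1207 FPKM in WT against 1144, 1198 and 1219 in A2ARKO. WT replicates 1 and 2 lay below the A2ARKO range and WT replicate 3 lay inside it. The means were 857 ± 309 and 1187 ± 38.4 FPKM (SD, n = 3), and the log2 fold change of 0.53 ± 0.31 (standard error) did not pass (limma adjusted p = 0.35). Set against Lox in the same library, Eln was at 3.52, 13.4 and 7.46 FPKM per 100 FPKM of Lox in WT. In A2ARKO it was at 0.651, 0.527 and 0.513. Eln was chosen for its fall, so this ratio is a description and carries no test.

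Loxl1 encodes a lysyl oxidase that binds fibulin-5 and acts on elastin (ENSMUSG00000032334.10, mm10 chr9:58287738-58313186, minus strand). It read 110.2, 132 and 88.6 FPKM in WT against 174, 138 and 127 in A2ARKO, and the ranges overlapped. The means were 110.2 ± 21.6 and 146 ± 24.3 FPKM (SD, n = 3), and the log2 fold change of 0.41 ± 0.20 (standard error) did not pass (limma adjusted p = 0.260). Lox and Loxl1 were thus present at 88.6 FPKM or more in every library, including those in which Eln was below 8 FPKM.

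**Figure D4:**
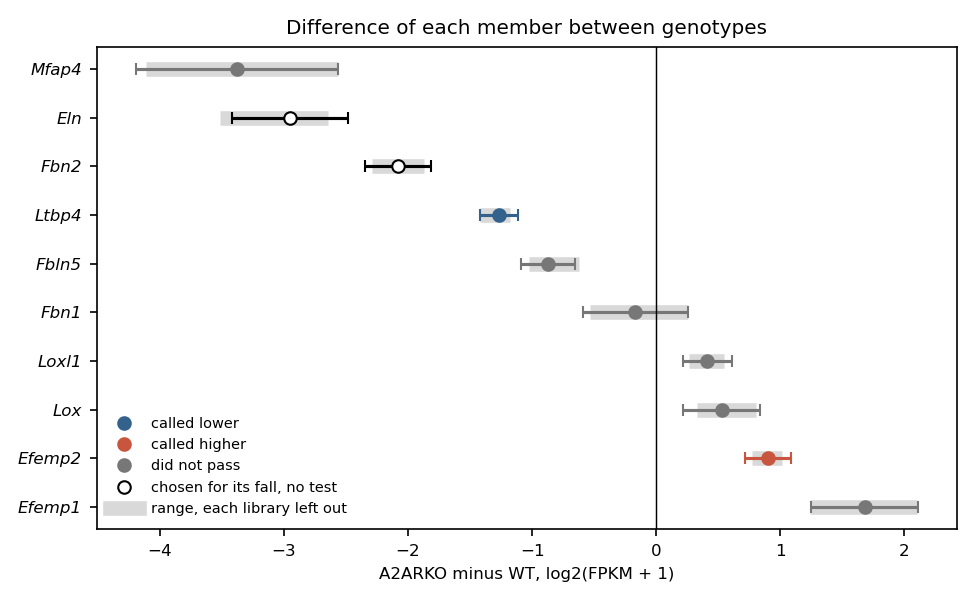
Log2 fold change of each member (log2(FPKM + 1), A2ARKO less WT) with its standard error; grey bands are the range with each library left out in turn and colours give the limma call, except for Eln and Fbn2 (open circles), for which no test is given. Ltbp4 was called below 0, Efemp2 was called above 0, and the band of Fbn1 crosses 0.

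The members differed in level as well as in direction. In WT the order of mean FPKM was Lox, Efemp2, Fbn1, Loxl1, Efemp1, Eln, Fbn2, Fbln5, Mfap4 and Ltbp4, and only Lox had a range that did not overlap that of the next gene. In A2ARKO the order was Lox, Efemp2, Efemp1, Fbn1, Loxl1, Fbln5, Fbn2, Eln, Ltbp4 and Mfap4. There the ranges of neighbours overlapped for Efemp1 and Fbn1, for Fbn1 and Loxl1, and for Ltbp4 and Mfap4, and were apart for the 6 other pairs. Eln was thus sixth of 10 in WT, overlapping its neighbours, and eighth in A2ARKO, apart from both. The summed level of the 10 members was 1364, 1484 and 2293 FPKM in WT against 2272, 2207 and 2189 in A2ARKO, and Lox made up between 41.8 and 55.7% of it. Eln made up 1.91, 5.60 and 3.93% of the sum in WT and 0.328, 0.286 and 0.2855% in A2ARKO. That share, too, follows the choice of Eln and carries no test.

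Within a genotype, the highest values of most members came from the same library. WT replicate 3 had the highest value of its group for 7 members and WT replicate 2 for the other 3, Ltbp4, Loxl1 and Mfap4. WT replicate 1 had the highest value for 0 members and the lowest for 5. In A2ARKO, replicate 1 was highest for 8 members, all but Efemp1 and Lox. The coefficient of variation lay between 16.75 and 102% in WT and between 3.23 and 85.4% in A2ARKO. It was smaller in A2ARKO for 9 of the 10 members, with Fbn2 the exception. Over all genes, neither this share nor the counts of highest and lowest values per library were computed. A smaller spread in A2ARKO was not particular to the members. It was also found in all 11 cartilage markers and in all 13 TGF-beta genes described below but Smad7. The 30 tested other pathway genes described below had it too, except Adamts6, Adamts10 and Bmp1. Of the fibroblast markers, Col1a1, Dpt, Thy1 and Postn varied more in A2ARKO. The WT libraries also spanned a wider range of cartilage markers, and the part of this in the spread was not tested. The members lie on 8 chromosomes, and none lies on chromosome 10 with Adora2a.

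Beyond the members, 37 further genes of elastic fibre and microfibril assembly were in the table and 30 passed the filter on low values. They include long fibulins, emilins, other microfibril-associated proteins, latent TGF-beta binding proteins, lysyl oxidases and the proteases that process them. Of the 30, Tnxb rose, 0 fell and 29 did not pass, and the median log2 fold change was 0.05. Over all genes tested, 5.08% were called in either direction and 3.31% were called higher. Tnxb, which encodes tenascin-X, a matrix glycoprotein that associates with collagen and elastic fibres, read 7.89, 4.45 and 6.98 FPKM in WT against 11.75, 15.05 and 13.9 in A2ARKO. Every A2ARKO library was above every WT library. The mean rose from 6.44 ± 1.78 to 13.6 ± 1.67 FPKM (SD, n = 3). Tnxb had a log2 fold change of 0.99 ± 0.20 (standard error, limma adjusted p = 0.0496). Of the fits that leave out 1 library, it passed only without WT replicate 1 (adjusted p = 0.0357); in the others the adjusted p was between 0.0553 and 0.191.

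Ligands, receptors and Smads of the TGF-beta pathway were read because TGF-beta is known to raise elastin expression and its latent forms are held on microfibrils. None of the 13 genes passed by limma, and 7 had an unadjusted p below 0.05, as 24.7% of all genes tested did (median log2 fold change -0.15). The inhibitory Smad gene Smad7, itself induced by the pathway, and the type I receptor gene Tgfbr1 had the smallest p. Smad7 read 3.23, 3.27 and 5.07 FPKM in WT against 13.8, 9.20 and 7.47 in A2ARKO (log2 fold change 1.18, standard error 0.25, limma adjusted p = 0.0522). Tgfbr1 read 6.83, 7.52 and 8.19 FPKM in WT against 5.49, 5.35 and 5.45 in A2ARKO (-0.40, 0.09 and 0.0558). Both were apart between genotypes, in opposite directions, and close to the threshold. Smad7 passed without WT replicate 3 (adjusted p = 0.0455) and Tgfbr1 without WT replicate 1 (0.0367).

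None of the 6 tested proteases that degrade elastin passed by limma, and 4 had an unadjusted p below 0.05, again beside 24.7% of all genes tested (median log2 fold change -0.71). Ctsk, encoding cathepsin K, a protease of osteoclasts and of connective tissue cells, read 117, 149.9 and 93.1 FPKM in WT against 69.35, 71.7 and 60.9 in A2ARKO (log2 fold change -0.80, standard error 0.19, limma adjusted p = 0.0677). Ctss, encoding cathepsin S, a protease of macrophages and other antigen-presenting cells, read 16.65, 72.5 and 7.64 FPKM in WT against 3.23, 1.14 and 0.77 in A2ARKO (-3.15, 0.80 and 0.0795). Both genes were lower in all A2ARKO libraries than in any WT library. Ctss was highest in WT replicate 2, where the macrophage markers were highest. Both genes passed without WT replicate 3, at adjusted p of 0.0345 and 0.0470 (log2 fold changes of -0.97 and -3.84).

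**Figure D5:**
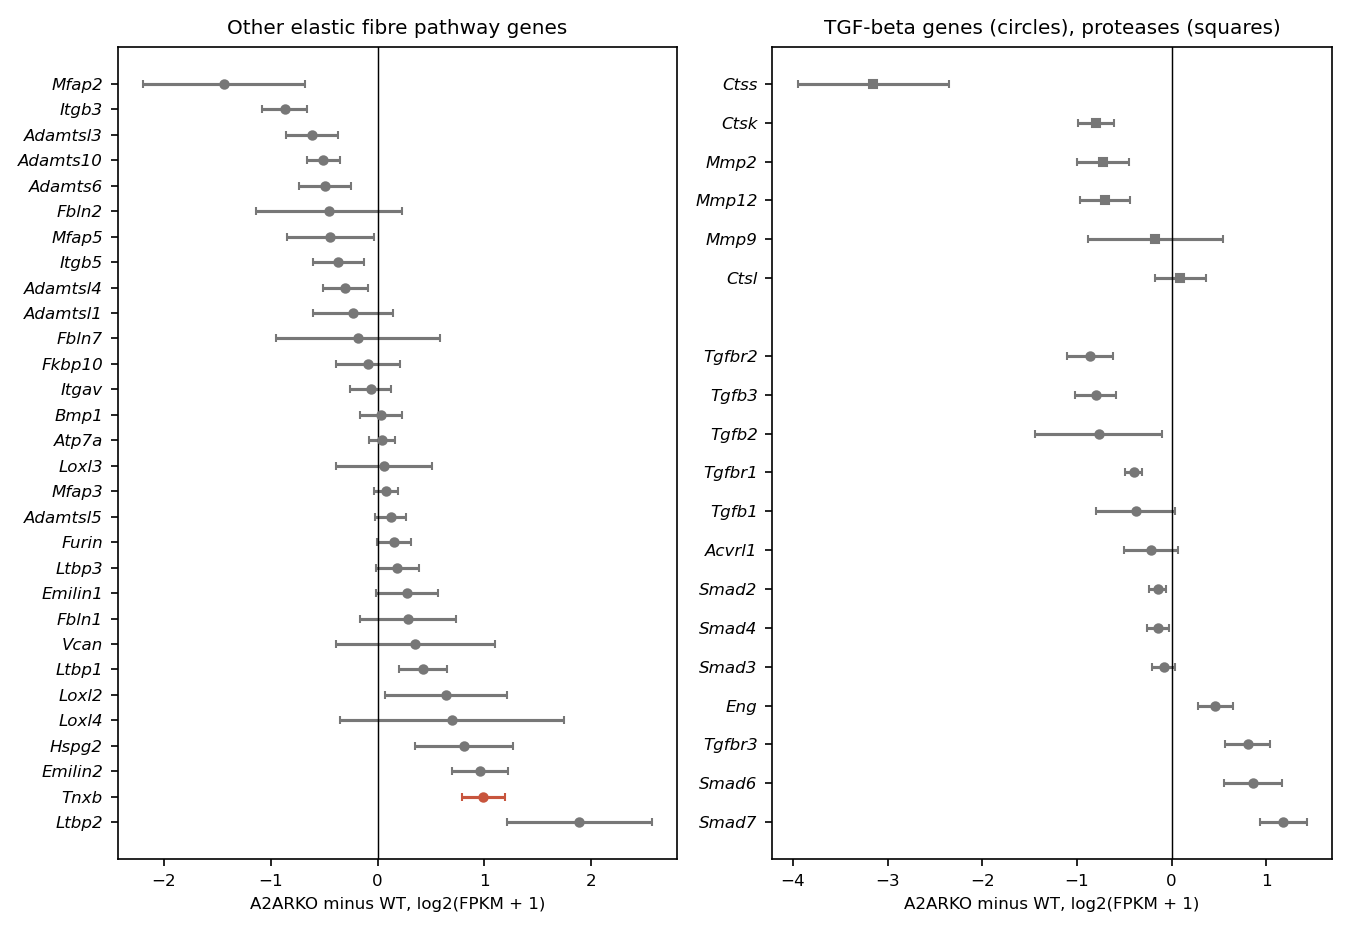
Log2 fold changes (log2(FPKM + 1), A2ARKO less WT) with standard errors of the tested genes of 3 further lists: other elastic fibre pathway genes (left), TGF-beta pathway genes (right, circles) and elastin-degrading proteases (right, squares). Tnxb, in red, is the single gene called, and the others, in grey, did not pass.

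The genes whose profile over the 6 libraries was most like those of Eln and Fbn2 were found from the mean absolute difference of centred log2(FPKM + 1) values. For Eln these were Gas2, Meox1, Cpxm1, Slc27a6 and C1qtnf3, at 0.32, 0.32, 0.43, 0.46 and 0.47 log2 units. Gas2, encoding a protein of the actin cytoskeleton, read 7.38, 17.8 and 32.5 FPKM in WT against 2.52, 2.52 and 2.49 in A2ARKO. The homeobox gene Meox1 read 13.4, 23.5 and 24.7 FPKM in WT against 3.19, 1.32 and 1.54 in A2ARKO. As in Eln, and as the choice by likeness favours, both had their lowest WT value in replicate 1. For Fbn2 they were Kctd12, Tenm3, Col8a2, Meg3 and Apobr, at 0.10, 0.20, 0.22, 0.23 and 0.25 log2 units. Kctd12 read 27.5, 29.4 and 47.5 FPKM in WT against 9.79, 7.78 and 6.80 in A2ARKO. Col8a2, which encodes a chain of the short-chain collagen VIII, read 61.85, 61.4 and 61.2 FPKM in WT against 16.7, 15.9 and 11.3 in A2ARKO. These 10 genes were picked for their likeness over these libraries, which fixes the direction of their difference, so their values are a description.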

How the data were processed

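The authors deposited 1 table of FPKM for 47480 genes and 6 libraries, rounded to 2 decimals. HTSeq and the build mm10 are named in the submitters' processing notes. For the aligner, annotation, gene lengths and strand setting nothing is stated (not given in the sources used here). Columns were assigned to samples by title.

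Genes with 1 FPKM or more in at least 3 libraries were tested (11595). limma 3.58.1 (R 4.3.3; eBayes with an intensity trend) was fitted to log2(FPKM + 1), A2ARKO against WT without a block, two-sided, with Benjamini-Hochberg adjustment over all genes tested. The log2(FPKM + 1) scale understates changes of low genes. Depth came from annotated genes of at most 150 bases, whose values of up to 10 reads came out whole (within 0.1 read) in at least 99.0% of cases. Reads per member use GENCODE M21 exon lengths and are approximate. The members and lists were chosen with earlier results of these data known. Named genes are all members, called members of each further list or else the 2 with the smallest p, and the 5 nearest profiles. The markers Snorc and Cnmd were read under older symbols. Alternatives covered pseudocount, filter, scaling, variance model, block and each library left out. FPKM carry no count error, so no counting intervals are given.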

Additional observations from a re-analysis of the deposited data

How the results depend on the processing

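Across 15 alternatives, 149 of 150 log2 fold changes of members, Eln and Fbn2 included, kept their direction. Fbn1 reached 0.25 without WT replicate 3 (range with each library left out -0.54 to 0.25). The replicate block, either change of filter and no intensity trend leave log2 fold changes as they were. Direction was thus fixed in those fits. The count of members below the threshold and lower includes Eln and Fbn2, chosen for their falls, so it is a description. It was 3, and became 0 with a replicate block, 5 with array weights and 0 to 4 with each library left out. Without A2ARKO replicate 2 or 3 it was 0. Aside from Eln and Fbn2, Ltbp4 passed in 11 of the 15 alternatives and Efemp2 in 6, and neither passed with the replicate block. Efemp1, Fbln5 and Mfap4 each passed in 2, and Fbn1, Lox and Loxl1 in 0. Among all genes, 589 were called, 2 with the replicate block, 213 with no filter, 348 once libraries had equal sums, 1096 with array weights and 50 (without A2ARKO replicate 2) to 900 (without WT replicate 1) with each library left out. The higher and lower calls, 384 and 205, became 178 and 170 after rescaling and 302 and 259 after quantile normalization. Other pathway genes called went from 1 to 0 with the replicate block, either pseudocount (0.1 or 0.01), no filter, a filter on the mean, both scalings or no intensity trend, to 2 with array weights and to 0 to 3 with each library left out. Proteases called were 2 with array weights and 0 to 2 with each library left out. TGF-beta genes called were 1 after rescaling (Tgfbr2), 1 after quantile normalization and 1 with array weights (Tgfbr1), and 0 to 3 with each library left out. The cause of these changes was not tested. Deviations of same-numbered libraries from their group means correlated at -0.52, -0.33 and -0.39, and 0 of 3 WT libraries matched their own number best. With 3 libraries per group that also differ in cell type markers, this cannot show whether same-numbered libraries were prepared together.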

Other observations

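Some other genes of the pathway had a wide spread between WT libraries. These genes were picked after their values were seen. Loxl4, a lysyl oxidase, read 195, 18.4 and 11.3 FPKM in WT replicates 1, 2 and 3 against 33.6, 72.9 and 77.15 in A2ARKO, and WT replicate 1 and A2ARKO replicates 2 and 3 are also the libraries with the highest cartilage marker sums. Mfap2, encoding a small microfibril glycoprotein, read 15.1, 108 and 52.55 FPKM in WT against 31.2, 12.2 and 10.1 in A2ARKO (limma adjusted p = 0.302). Ltbp2, whose product binds fibrillin-1 and fibulin-5, read 15.05, 37.8 and 104 FPKM in WT against 219.5, 131 and 113 in A2ARKO. The genotypes did not overlap for Ltbp2, opposite in direction to Ltbp4, and its log2 fold change of 1.89 ± 0.68 (standard error) did not pass (limma adjusted p = 0.159). It passed without WT replicate 3 (adjusted p = 0.0469).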
